A study of Mus musculus with 4 samples.

Results

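Matrix Gla protein (Mgp), orosomucoid 1 (Orm1) and pleiotrophin (Ptn) were the genes that picked out 10% of the carcinoma cells of MB49 tumours, 792 of 7917 cells. Carcinoma cells were taken as cells of the CD45-negative sort with at least 2000 unique molecular identifiers (UMIs, 1 per captured transcript), at most 25% mitochondrially encoded UMIs, at least 3 UMIs of the keratins Krt8 and Krt18 together, no Ptprc UMI (the gene of CD45) and fewer than 5 Fgb UMIs. These cells, from both libraries together, were ordered by the summed UMIs of Mgp, Orm1 and Ptn as a share of all UMIs of the cell, and the top 10% were the members. The members were thus chosen by their measured levels of these genes. The male library gave 770 members of 4562 carcinoma cells and the female library 22 of 3355. Every other carcinoma cell of the same library served as the rest, 3792 male and 3333 female cells.

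MB49 is a mouse bladder carcinoma line that came from a male mouse. The study sorted dissociated MB49 tumours of male and of female mice into CD45-positive and CD45-negative live cells and profiled them on the BD Rhapsody microwell platform to ask how the immune system relates to the sex difference in tumour growth. It has 4 libraries, 1 for each sex and sort, and the labels give neither the number of mice or tumours in a library, nor the mouse strain, the age or the time after injection. The deposited files hold 22115 cell barcodes in all, 6023 of them in the CD45-negative library of males and 5152 in that of females. Both groups carry the same tumour line and no further treatment or genotype is named, so male and female here mean the host.

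With 1 library for each sex there is no biological replicate, cells of 1 library are not replicates, and no p-value was computed. Values are raw UMIs summed over cells and given as CPM, counts per 1000000 UMIs of that sum. Intervals are exact 95% intervals and cover counting error only. UMIs summed to 8034402 in male members, 50647135 in the male rest, 189845 in female members and 42094766 in the female rest, so that a gene with no UMI could still stand at up to 0.373 CPM in male members and 15.8 CPM in female members, the level of 3 UMIs. Members were shallower than the rest, with a median of 9142 UMIs in male members and 11963.5 in the male rest, and 8509.5 UMIs in female members and 11723 in the female rest. Cell names in the files are serial numbers, so cell barcodes shared between libraries could not be counted.

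Matrix Gla protein is a small secreted protein that needs vitamin K-dependent carboxylation, keeps soft tissue from calcifying and binds bone morphogenetic proteins. Orosomucoid is an acute-phase plasma protein, made mainly by the liver and induced by interleukin-6, interleukin-1 and glucocorticoids. Pleiotrophin is a heparin-binding growth factor that signals through the receptor phosphatase Ptprz1, the kinase Alk and syndecans. On the mm10 build with the GENCODE M21 annotation, the protein-coding gene Mgp lies on the minus strand at chr6:136872435-136875823, Orm1 on the plus strand at chr4:63344560-63348163 and Ptn on the minus strand at chr6:36714929-36810220.

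The 4 promoters below are those of genes whose values are described in full. They belong to Ptn, the only gene of the rule with a RefSeq promoter entry here, Fetub, the gene with the highest-ranked member-to-rest ratio, and Cp and C3, acute-phase genes that were higher in members of both libraries. Each line gives the 250 bases before the start farthest upstream in the RefSeq table (build GRCm38.p6), 5′ to 3′ on the strand of the gene. Capitals mark matches, on either strand, to 1 of 5 short motifs, whose letters are given after the sequences.
Ptn, chr6:36810180-36810429, minus strand: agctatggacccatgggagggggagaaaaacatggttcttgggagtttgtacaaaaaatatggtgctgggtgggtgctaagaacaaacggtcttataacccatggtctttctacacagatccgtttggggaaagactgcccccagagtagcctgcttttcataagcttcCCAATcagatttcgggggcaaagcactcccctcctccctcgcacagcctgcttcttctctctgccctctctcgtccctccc
Fetub, chr16:22918132-22918381, plus strand: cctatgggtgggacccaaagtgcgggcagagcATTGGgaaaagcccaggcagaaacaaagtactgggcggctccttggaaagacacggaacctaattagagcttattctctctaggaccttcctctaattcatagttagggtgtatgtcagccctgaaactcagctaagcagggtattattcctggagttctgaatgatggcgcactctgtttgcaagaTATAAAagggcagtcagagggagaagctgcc
Cp, chr3:19956804-19957053, plus strand: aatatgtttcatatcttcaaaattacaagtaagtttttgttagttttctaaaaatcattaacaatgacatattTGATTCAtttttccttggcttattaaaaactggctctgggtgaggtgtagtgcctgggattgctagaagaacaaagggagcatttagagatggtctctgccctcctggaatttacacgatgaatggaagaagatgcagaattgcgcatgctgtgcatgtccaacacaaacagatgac
C3, chr17:57228137-57228386, minus strand: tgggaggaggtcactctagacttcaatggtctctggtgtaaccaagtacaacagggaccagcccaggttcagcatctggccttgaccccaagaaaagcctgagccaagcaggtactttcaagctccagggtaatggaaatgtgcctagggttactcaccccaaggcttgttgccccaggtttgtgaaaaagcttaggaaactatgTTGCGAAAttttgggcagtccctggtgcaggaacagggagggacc
The letters TTGCNNAA stand for C/EBP, a factor family of acute-phase genes. The C3 window held the 1 such match of the 4, 45 to 38 bases before the start, and 9.56% of the 32851 windows of the table held one. The Fetub window held TATAAA, the box at which transcription initiation factors bind, 31 to 26 bases before the start, and 12.4% of all windows held it. For the letters CCAAT, the Fetub window had a match 218 to 214 bases before the start and the Ptn window 81 to 77 bases before it, against 33.8% of all windows. The Cp window held the AP-1 letters TGANTCA 177 to 171 bases before the start, a motif in 6.75% of all windows. None of the 4 windows held the STAT letters TTCNNNGAA, which 7.02% of all windows held. A match is a description of letters, and no 2 matches overlap in these windows.

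The summed share of the 3 genes set the members apart by a cut and not by a gap. The least member had 48.484 and the next cell outside had 48.4707 UMIs of the 3 genes per 10000 UMIs, and 373 cells lay within 10% of the cut. Male members ran from 48.484 through a median of 63.9 to 218.6 per 10000 UMIs, and the male rest had a median of 20.1. Female members ran from 48.5 through a median of 64.7 to 244.8 per 10000 UMIs, and the female rest had a median of 6.79. Members made up 16.9% of male carcinoma cells (Clopper-Pearson interval 15.8 to 18.0) and 0.656% of female carcinoma cells (0.411 to 0.991), so 97.2% of all members came from the male library. When each library gave its own top 10%, the cut lay at 59.96 per 10000 UMIs for male cells, which left 456 of them, and at 18.04 for female cells, which left 336. That second choice, called the own top 10% below, gives female values that do not rest on 22 cells. The plot of the summed share by library shows how far the female cells lie below the common cut.

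**Figure D1:**
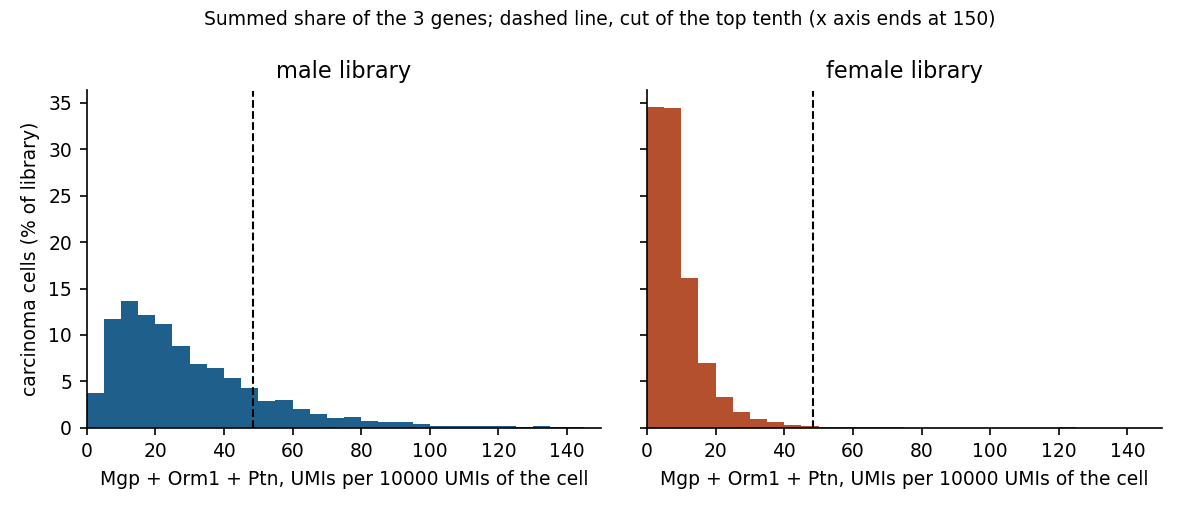
Distribution of the summed UMIs of Mgp, Orm1 and Ptn per 10000 UMIs of a cell (x axis, bins of 5) as percent of the carcinoma cells of the male library (left) and the female library (right). The dashed line is the cut of 48.484 that makes 770 male and 22 female members. The x axis ends at 150, and 17 male and 1 female cell lie beyond it.

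Mgp made most of the sum. It supplied 78.1% of the rule's UMIs in male members and 92.1% in female members, against 65.5% in the male rest and 48.2% in the female rest. Mgp had the most UMIs of the 3 genes in 677 of 770 male members and in 21 of 22 female members. All 3 were detected in 557 male members, 72.3%, and in 8 female members, 36.4%. Over single cells the 3 genes went with each other weakly or not at all: Spearman's rho of Mgp with Ptn was 0.15 in male and 0.12 in female cells, Mgp with Orm1 0.05 and -0.02, and Orm1 with Ptn -0.02 and -0.07, over 4562 male and 3355 female cells that share their library and differ in depth. The members were cells high in Mgp first.

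The levels of the 3 genes are what chose the members and are given as a description. Mgp stood at 5482 CPM in male members and 1387 CPM in the male rest, with a median of 47 UMIs per male member and 13 per cell of the rest. It stood at 6711 CPM in female members and 396 CPM in the female rest, with medians of 58.5 and 2 UMIs per cell. Every member had at least 1 Mgp UMI. Ptn stood at 929 CPM in male members and 361 CPM in the male rest, and at 316 CPM in female members and 129 CPM in the female rest. Orm1 stood at 611 CPM in male members and 369 CPM in the male rest. In the female library Orm1 was not higher in members, at 258 CPM (interval 191 to 341) against 297 CPM (292 to 302) in the rest. In the female own top 10%, where the cut is lower, Orm1 was 1.61 times its level in the other female cells, and in the male own top 10% 1.63 times.

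**Figure D2:**
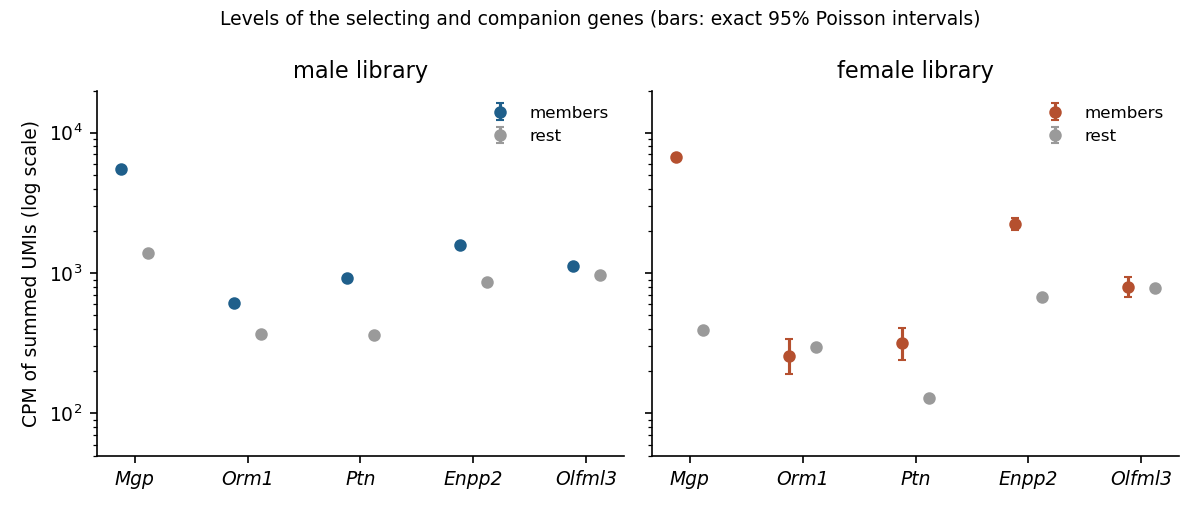
Level in CPM of summed UMIs (y axis, log scale) of the 3 genes of the rule and of Enpp2 and Olfml3 (x axis) in members (coloured) and in the rest (grey) of the male library (left) and the female library (right). Bars are exact 95% Poisson intervals, many smaller than the points. Mgp, Ptn and Enpp2 lie higher in members in both libraries, Orm1 in the male library, and Olfml3 at 1124 and 973 CPM in the male library and 801 and 788 CPM in the female library.

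Enpp2 and Olfml3 had been proposed as further markers of these cells, and Enpp2 alone of this pair passed 1.5-fold. Enpp2, which encodes autotaxin, the secreted enzyme that makes lysophosphatidic acid (minus strand, chr15:54838901-54952892), stood at 1578 CPM in male members and 861 CPM in the male rest, 1.83 times. It stood at 2249 CPM in female members and 672 CPM in the female rest, 3.35 times (interval 3.04 to 3.69). Outside the 3 genes of the rule, Enpp2 was also the gene whose share of UMIs went most closely with the summed share over cells. It ranked so among 5914 genes detected in at least 20% of carcinoma cells of each library. Its Spearman's rho was 0.43 in 4562 male and 0.36 in 3355 female cells. The next genes by the value nearer to 0 were Itm2b (0.37 male, 0.34 female), Psap (0.40 and 0.31), which encodes the lysosomal saposin precursor, Aldh3a1 (0.37 and 0.30), an aldehyde dehydrogenase, and Ly6e (0.29 and 0.27). Olfml3, a secreted olfactomedin-domain protein, was 1.15 times its rest level in male members and 1.02 times in female members, where the interval of 678 to 939 CPM holds the 788 CPM of the rest. It does not mark the members.

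The cells were checked against markers of carcinoma and of other cell types. Krt18 stood at 1713 CPM in male members and 1628 CPM in the male rest, and at 2534 CPM in female members and 2048 CPM in the female rest. Krt8 stood at 554 and 616 CPM in male members and rest, and at 732 and 767 CPM in female members and rest. Other epithelial markers varied in level. Jup, a junction protein, stood at 382 CPM in male members and 333 CPM in the male rest. Cldn3, a claudin, stood at 21.8 and 27.8 CPM in male members and rest. In the female library Jup stood at 421 and 334 CPM in members and rest, and Cldn3 at 52.7 and 41.3 CPM. Of 9 measured epithelial junction genes, 5 lay below their rest level in male members and 4 above it. Dsp was past 1.5-fold lower in both libraries and none was higher, against 0.823% and 1.31% of eligible genes. Dsp stood at 5.10 and 7.78 CPM in male members and rest, and had 2 UMIs in female members. In the own top 10% sets Ocln and Dsp were past 1.5-fold lower in both libraries, against 0.351% of eligible genes. Krt19 is described with the keratins. Epcam and Krt7 were near 0, and each had 1 UMI in male members and 4 in the male rest, and none in female members. The mesenchymal filament gene Vim stood at 6394 CPM in male members and 7722 CPM in female members. Cd3e had no UMI in any member or other carcinoma cell, Csf1r, Cdh5 and Pdgfrb had none in members, and the complement genes C1qa, C1qb and C1qc summed over 770 male members to 5, 14 and 7 UMIs. Of 3 measured endothelial markers, Plvap and Pecam1 were past 1.5-fold higher in members of both libraries, against 1.31% of eligible genes. Plvap stood at 29.9 CPM in male members and 18.7 CPM in the male rest, and at 36.9 CPM in female members (7 UMIs) and 14.1 CPM in the female rest, with intervals of the ratio above 1 in both. Pecam1 had 17 UMIs in male members and 1 in female members, at 1.58 and 2.20 times the rest level. Of 6 measured pericyte markers, Des was past 1.5-fold higher in both libraries, at 7.34 CPM in male members and 3.85 CPM in the male rest and on 1 UMI in female members. The part of such cells in the results was not tested. In leukocytes of the CD45-positive libraries (cells with a Ptprc UMI and none of Krt8 or Krt18), thinned like the carcinoma cells to 2000 UMIs a cell, 1.14% of 3495 male and 0.420% of 3098 female cells had an Mgp UMI. The thinned shares among carcinoma cells were 99.2% of male members and 81.8% of the male rest, and 100% of the 22 female members (84.6 to 100) and 40.4% of the female rest. Median depths before thinning were 9035 and 8126 UMIs in the male and female leukocytes. Without thinning, 5.84% of male and 1.58% of female leukocytes had an Mgp UMI, against 98.3% of the male rest and 77.6% of the female rest.

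A single male member held most of the UMIs of some fibroblast markers. It lay in a cluster of 29 cells led by Postn, Saa3, Fstl1, Col1a2 and Cxcl14, and it held 98.8% of the Cxcl14 UMIs of all male members, 95.3% of Postn and 95.8% of Lum. With that cluster left out, which was done after the data were seen, Cxcl14 was 0.574 times and Postn 1.10 times its rest level in male members, against 13.9 and 3.88 times with it. Decorin (Dcn) is a matrix proteoglycan also used as a fibroblast marker, and that cell held 4.14% of its UMIs. Dcn stood at 252 CPM in male members and 142 CPM in the male rest, 1.78 times, and 1.73 times without that cluster, and it had at least 1 UMI in 478 of 770 male members. In the female library Dcn stood at 321 CPM in members and 108 CPM in the rest. Of the 11 measured fibroblast markers, Dcn was the 1 past 1.5-fold in both libraries. In male members 10 of the 11 lay above 1, with a median log2 ratio of 0.55. Of the 11, 5 passed 1.5-fold higher there, as did 119 of the 6315 eligible genes. These counts include the single cell of that cluster. With the cluster left out, Lum, Dpt and Col1a2 were 0.451, 0.592 and 0.923 times their rest level in male members. With it they were 3.78, 1.66 and 1.04 times. Col1a1 and Col3a1 stayed above 1 without it, at 1.10 and 1.13 times, as did Dcn. In the male own top 10%, which also held that single cell, all 11 lay above 1, with a median of 0.86. In female members 6 of the 8 with a ratio lay below 1, with a median of -0.85. The part of fibroblast RNA in the results was not tested. Col1a1, a fibroblast collagen that these carcinoma cells expressed throughout, stood at 3743 CPM in male members and 3409 CPM in the male rest, and at 3171 CPM in female members and 2912 CPM in the female rest.

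Across the transcriptome few genes differed. Of 6315 named genes outside the rule, mitochondrial, ribosomal, immunoglobulin and sex-linked genes left out, with at least 100 UMIs over members and rest of each library and at least 20 CPM in one or the other, 83 were at least 1.5-fold higher in members in both libraries, 1.31%, and 52 were at least 1.5-fold lower, 0.823%. With the further demand, added after the data were seen, that the counting interval of the ratio lie on that side of 1 in both libraries, 61 genes (0.966%) were higher and 26 (0.412%) lower. The male library by itself had 154 higher (2.35%) and 126 lower genes (1.92%) of 6549. The female library by itself had 1020 higher (14.6%) and 1480 lower genes (21.2%) of 6972, counts that rest on 22 cells and few UMIs a gene. With each library's own top 10%, 48 genes were higher (0.767%) and 22 lower (0.351%) of 6259, and 38 of those 48 were among the 83. All 15 highest-ranked genes passed 1.5-fold in the male own top 10% and 14 of them in the female one. All 15 lowest-ranked genes passed it downward in the male own top 10% and 4 in the female one.

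Fetub, which encodes fetuin-B, a plasma protein of the liver (plus strand, chr16:22918334-22939778), ranked first on the higher side, ahead of Spib, Fat2 and Tst. It stood at 108 CPM in male members (interval 101 to 116) and 25.7 CPM in the male rest (24.3 to 27.1), 4.22 times, and 33.2% of male members and 14.1% of the male rest had a UMI of it. After thinning to 2000 UMIs a cell these shares were 17.5% and 4.32%, and none of 3495 male leukocytes had one (Clopper-Pearson upper bound 0.105%). In the female library 3 of 22 members held 23 Fetub UMIs, 91.3% of them in 1 cell. Slc12a2, the sodium-potassium-chloride cotransporter, stood at 595 CPM in male members and 279 CPM in the male rest, and at 284 CPM in female members (54 UMIs in 12 cells) and 126 CPM in the female rest. Fmo1, a flavin-containing monooxygenase, stood at 188 CPM in male members and 79.1 CPM in the male rest, 2.38 times, and at 52.7 CPM in female members and 26.3 CPM in the female rest on 10 UMIs. Tcn2, the vitamin B12 carrier transcobalamin, stood at 102 CPM in male members and 43.2 CPM in the male rest. Tst, the mitochondrial sulfurtransferase rhodanese, stood at 86.8 CPM in male members and 37.4 CPM in the male rest. The atypical cadherin Fat2 stood at 71.6 CPM in male members and 30.4 CPM in the male rest, and the ETS factor Spib at 26.0 and 8.88 CPM. The other highest-ranked genes were Lgals2, Itga10, Islr, Tnnc1, Tslp, Lbp, Chl1 and Slc16a4, and over the 15 the male ratios ran from 1.91 to 4.22. In female members 5 of the 15 had fewer than 10 UMIs and in 6 a single cell held 50% or more of them.

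**Figure D3:**
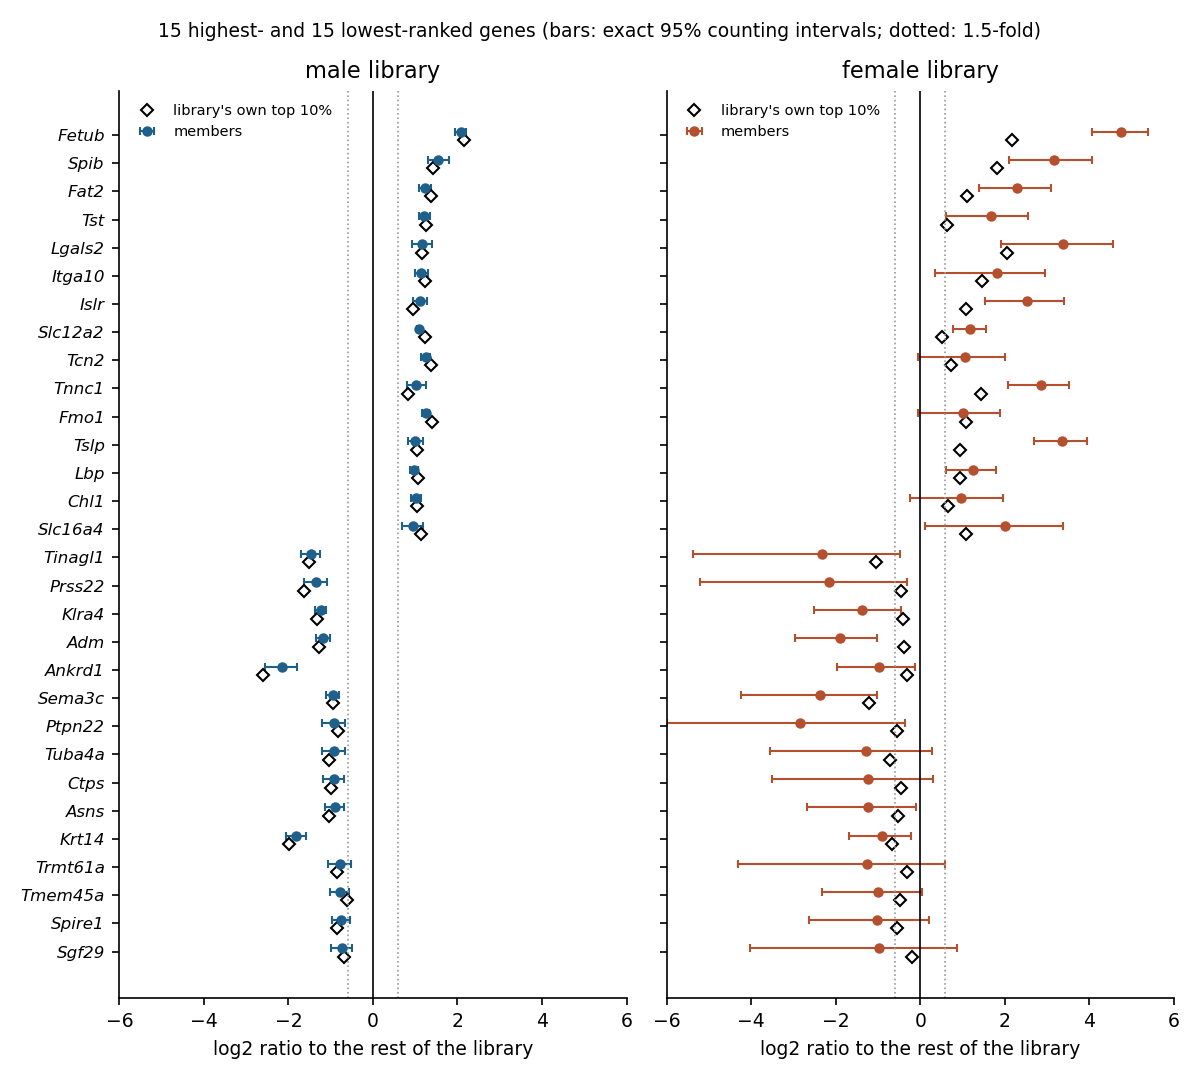
Log2 ratio of summed CPM to the rest of the same library (x axis) for the 15 highest- and 15 lowest-ranked genes (rows) in the male library (left) and the female library (right). Filled points are members with exact 95% counting intervals, open diamonds each library's own top 10%, and dotted lines 1.5-fold. The female intervals are wide, 1 of them (Ptpn22) runs past the axis, and female diamonds lie nearer to 0 than most female points.

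Most measured acute-phase genes lay above their rest level in male members, 13 of 15, and 7 of the 12 with a ratio in female members. The list of orosomucoid and acute-phase genes holds Orm1, a gene of the rule, and these plasma proteins are made in inflammation. These counts and the list's medians include Orm1, whose values chose the members and which the eligible genes leave out. Orm1 was 1.66 times its rest level in male members and 0.869 times in female members. The list without Orm1 was not tested. Of 15 measured members of the list, 6 were past 1.5-fold higher in both libraries (Lcn2, Serpina3n, C3, Cp, Itih2 and Lbp) and none lower, against 1.31% and 0.823% of eligible genes. Lists count genes with at least 20 UMIs in each library, a looser filter than that of the 6315 genes, which Itih2, with 3 UMIs in female members, did not pass. The counting intervals lay above 1 in both libraries for 4 of the 6, Lcn2, C3, Cp and Lbp. The list's median log2 ratio was 0.73 in male and 0.44 in female cells, against -0.05 and -0.12 for all eligible genes. Cp, which encodes ceruloplasmin, the copper-carrying ferroxidase of plasma, stood at 3345 CPM in male members and 2149 CPM in the male rest, 1.56 times. It stood at 3213 CPM in female members and 1290 CPM in the female rest, 2.49 times. Summed over cells, Cp was nearly level between male and female members, while in the rest the male level was 1.67 times the female one. In female members 1 cell held 30.7% of its UMIs, and the median was 14.5 UMIs per female and 30 per male member. The complement component C3 stood at 751 CPM in male members and 440 CPM in the male rest, 1.71 times, and at 1227 CPM in female members and 562 CPM in the female rest, 2.18 times. Lbp, the lipopolysaccharide-binding protein, stood at 147 CPM in male members and 74.9 CPM in the male rest, and at 132 CPM in female members and 55.8 CPM in the female rest. Serpina3n, a serine protease inhibitor whose near-identical paralogs may share its reads, stood at 134 and 54.7 CPM in male members and rest, and at 47.4 and 30.9 CPM in female members and rest, where the interval of the ratio reached from 0.700 to 2.92. Orm2 was 2.33 times its rest level in male members and had 1 UMI in female members. Reads of Orm1, Orm2 and Orm3, which are near-identical, may have been split between them. In the own top 10% sets Orm2, Serpina3n, C3, Cp, Itih2 and Lbp were past 1.5-fold higher in both libraries, besides Orm1, whose values chose the cells, and Saa3 and Serpina3f were lower, against 0.767% and 0.351% of eligible genes. Lcn2 was 0.885 times there in the female library. Of 8 measured complement genes C3 was the 1 past 1.5-fold in both libraries.

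The genes of interleukin-6 and C/EBP signalling, which act before acute-phase genes, stayed closer to the rest. None of 14 measured genes was past 1.5-fold in both libraries in either direction. The list's median log2 ratio was 0.31 in male and 0.24 in female cells, against -0.05 and -0.12 for all eligible genes. All 14 lay above 1 in male members, led by Lif, a cytokine of the interleukin-6 family, at 401 CPM in male members and 252 CPM in the male rest. Il6 stood at 31.6 CPM in male members and 22.2 CPM in the male rest, and at 68.5 CPM in female members and 24.3 CPM in the female rest. In the own top 10% sets Il6 was the 1 gene of the list past 1.5-fold higher in both libraries, against 0.767% of eligible genes, and none was lower. Stat3 stood at 426 and 323 CPM in male members and rest but at 242 and 331 CPM in female members and rest. Cebpb differed little, at 399 and 391 CPM in male members and rest, and 511 and 525 CPM in female members and rest. Of 10 measured glucocorticoid-response genes, Klf9 was the 1 past 1.5-fold higher in both libraries, at 78.0 and 40.9 CPM in male members and rest, and 121 and 56.9 CPM in female members and rest. With the own top 10% sets it was 2.12 times in the male and 1.38 times in the female library, so no gene of that list passed in both.

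Few partners of the genes of the rule were past 1.5-fold in both libraries. Of 6 measured genes of vitamin K carboxylation, Mgp itself was the 1 past 1.5-fold in both libraries. The carboxylase Ggcx stood at 13.8 CPM in male members and 14.7 CPM in the male rest, and the epoxide reductase Vkorc1 at 81.4 and 60.2 CPM in male members and rest and at 21.1 and 44.0 CPM in female members and rest. Of 17 measured ligands, receptors and targets of bone morphogenetic protein signalling, none was higher in both libraries and Id2 was lower, on 1 UMI in female members. In female members alone 4 of them were past 1.5-fold higher and 3 lower, as were 668 and 1390 of the 6315 eligible genes. Of 10 measured genes of the pleiotrophin and midkine axis, Ptn itself was the 1 past 1.5-fold in both. The syndecan Sdc4 stood at 696 and 677 CPM in male members and rest, and Sdc1 at 356 and 413 CPM in male and at 1122 and 891 CPM in female members and rest. Of 7 measured genes of lysophosphatidic acid production, receptors and breakdown, Enpp2 was the 1 past 1.5-fold in both. Past 1.5-fold higher were 2 of the 7 in male members and 3 in female members, as were 119 and 668 of the 6315 eligible genes. The list's median log2 ratio was 0.33 in male and 1.27 in female members, and -0.11 and -0.17 in the male and female own top 10% sets. Plpp3, a phosphatase that breaks lysophosphatidic acid down, stood at 441 and 280 CPM in male members and rest, 1.57 times, and at 311 and 210 CPM in female members and rest, 1.48 times.

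Among signalling proteins of the surroundings, 3 of 17 measured chemokines and cytokines were past 1.5-fold higher in both libraries and none lower, against 1.31% and 0.823% of eligible genes. Il33 and Tslp passed in both own top 10% sets, and Ccl5, at 1.51 times in the male and 1.28 times in the female library, did not. Il33, an alarmin cytokine, stood at 679 CPM in male members and 414 CPM in the male rest, and at 263 CPM in female members (50 UMIs in 9 cells) and 113 CPM in the female rest. Ccl5, a chemokine for T cells, stood at 132 and 83.0 CPM in male members and rest, and at 274 and 61.2 CPM in female members and rest, where 1 cell held 71.2% of the UMIs of members. Tslp, an epithelial cytokine, stood at 44.6 and 22.2 CPM in male members and rest, and 83.3% of its 24 UMIs in female members came from 1 cell. The abundant chemokine genes Cxcl1, Ccl2 and Ccl7 were at 0.884, 0.834 and 0.879 times the rest level in male members, and at 2.24, 0.738 and 0.731 times in female members. The matrix proteases Mmp3 and Mmp13 were the 2 of 15 past 1.5-fold higher in both libraries, against 1.31% of eligible genes, Mmp13 at 172 and 96.7 CPM in male members and rest and at 495 and 47.9 CPM in female members and rest, with 53.2% of the UMIs of female members in 1 cell. Mmp3, a stromelysin, stood at 143 and 90.7 CPM in male members and rest, and 89.6% of its UMIs in female members came from 1 cell. With the own top 10% sets no matrix protease was past 1.5-fold higher in both libraries: Mmp13 was 1.43 times in the male and 2.08 times in the female one, and Mmp3 1.34 and 1.61 times. The pioneer factor Foxa1 was the 1 of 6 measured urothelial genes past 1.5-fold higher in both, at 114 and 68.6 CPM in male members and rest, and at 100 and 48.0 CPM in female members and rest. Foxa1 in the own top 10% sets was 1.69 times in the male and 1.45 times in the female library, and no urothelial gene passed in both.

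On the lower side, 2 of 5 measured keratins, Krt14 and Krt19, were past 1.5-fold lower in both libraries and none higher, against 0.823% and 1.31% of eligible genes, and Krt14 alone of them in the own top 10% sets. Krt8 was 0.899 and 0.955 times and Krt18 1.05 and 1.24 times its rest level in male and female members. Krt14, the basal keratin (minus strand, chr11:100203162-100207548), stood at 18.7 CPM in male members (interval 15.8 to 21.9) and 65.8 CPM in the male rest, 0.284 times. It stood at 89.5 CPM in female members (52.2 to 143) and 167 CPM in the female rest, 0.537 times. Krt19 stood at 176 CPM in male members and 280 CPM in the male rest, and at 68.5 CPM in female members (13 UMIs in 5 cells, 61.5% of them in 1) and 240 CPM in the female rest. Thinned to 2000 UMIs a cell, Krt14 was detected in 3.51% of male members and 9.39% of the male rest. In the female library it was detected in 13.6% of members (3 of 22 cells) and 24.2% of the rest. The interval of that member share, 2.91 to 34.9%, holds the share of the rest. Ankrd1, a classical YAP target, stood at 7.72 CPM in male members and 34.5 CPM in the male rest, 0.224 times, and at 57.9 and 113 CPM in female members and rest, with 72.7% of its 11 UMIs in female members in 1 cell. Of 9 measured YAP and TEAD targets, Ankrd1, Amotl2 and Ajuba were past 1.5-fold lower in both libraries and none higher, against 0.823% of eligible genes lower, with a median log2 ratio of -0.41 in male and -0.48 in female cells. Ankrd1 was the 1 of these whose counting intervals lay below 1 in both, and Amotl2 and Ajuba, with 5 and 1 UMIs in female members, did not pass the filter of the 6315 genes. In the own top 10% sets none of the 9 was past 1.5-fold in both libraries, and Ankrd1 was 0.164 times in the male and 0.810 times in the female one. Adm, which encodes the hypoxia-induced peptide adrenomedullin, stood at 39.5 CPM in male members and 89.4 CPM in the male rest, and at 52.7 CPM in female members (10 UMIs) and 196 CPM in the female rest. It was the 1 of 16 measured hypoxia genes past 1.5-fold in both, and none was in the own top 10% sets, where Adm was 0.413 times in the male and 0.765 times in the female library. Klra4, named for a lectin-like receptor of natural killer cells and 1 of a near-identical family, stood at 60.5 CPM in male members and 142 CPM in the male rest, and at 47.4 and 124 CPM in female members and rest. Asparagine synthetase (Asns) stood at 24.0 and 45.1 CPM in male members and rest, and at 31.6 and 73.9 CPM in female members and rest. The other lowest-ranked genes were Tinagl1, Prss22, Sema3c, Ptpn22, Tuba4a, Ctps, Trmt61a, Tmem45a, Spire1 and Sgf29, and 12 of the 15 had fewer than 10 UMIs in female members.

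Most proliferation genes lay below their rest level. Of 24 measured, 1 was past 1.5-fold lower in male members and 18 in female members, none in both libraries. Among all 6315 eligible genes, 120 were so in male and 1390 in female members. Of the 24, 23 lay below 1 in male members and 22 in female members. The median log2 ratio was -0.25 in male and -1.14 in female cells, against -0.05 and -0.12 for all eligible genes. In the own top 10% sets the list's median was -0.35 for male and -0.14 for female cells, and Mki67 was 0.837 times its level in the other male cells and 0.929 times in the female ones. Mki67 stood at 299 and 338 CPM in male members and rest, and at 142 and 267 CPM in female members and rest. Rrm2, a subunit of ribonucleotide reductase, stood at 339 and 507 CPM in male members and rest, and at 163 and 360 CPM in female members and rest. Members had fewer UMIs a cell than the rest, and the part of depth in these ratios was not tested.

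Antigen presentation genes stood above their rest level in male members and mostly below it in female members. All 17 measured genes of MHC class I and II presentation lay above 1 in male members with a median log2 ratio of 0.35. In female members 12 of the 15 with a ratio lay below 1, with a median of -0.37. The medians of all eligible genes were -0.05 in male and -0.12 in female members. In female members 4 genes of the list were past 1.5-fold lower and none higher, as were 1390 and 668 of the 6315 eligible genes. None of the list was past 1.5-fold in both. H2-D1 stood at 4356 and 3306 CPM in male members and rest, and at 3808 and 3729 CPM in female members and rest. The class II gene H2-Aa stood at 518 and 340 CPM in male members and rest, and at 121 and 171 CPM in female members and rest. In the female own top 10%, 11 of the 17 lay above 1. Of 17 measured interferon-stimulated genes, Ifit3, Ifit3b and Cmpk2 were past 1.5-fold lower in both libraries and none higher, against 0.823% of eligible genes lower. They had 6, 1 and 5 UMIs in female members, and Ifit3b did not pass the filter of the 6315 genes. In the own top 10% sets none was past 1.5-fold in both. Reads of near-identical H2 genes may have been split between them. The difference between the libraries was not tested. The interferon list had a median log2 ratio of -0.32 in male and -1.01 in female members.

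Levels of Enpp2 and Cp were graded along the summed share. With all carcinoma cells ordered by the summed share and cut into 10 equal bins, male Enpp2 stood at 392 CPM in the lowest bin, 663 in the fifth and 1578 in the highest, and male Cp at 1350, 1861 and 3345 CPM. Female Enpp2 stood at 382, 795 and 2249 CPM and female Cp at 969, 1548 and 3213 CPM in the same bins. Slc12a2 kept near its level over the lower 5 bins, between 187 and 228 CPM in the male library, and stood at 425 CPM in the ninth and 595 CPM in the highest. Female Orm1 rose from 100 CPM in the lowest bin to 482 in the sixth and seventh, and was lower in the last bins, at 258 in the highest. Those last bins, the eighth to the highest, held 89, 44 and 22 female cells. Over single cells the Spearman's rho of Orm1 with the sum, of which it is a part, was 0.48 in female and 0.30 in male cells. Krt14 stood at 92.1 CPM in the lowest and 18.7 CPM in the highest male bin, and Itga3 at 409 and 237 CPM. The lowest male bin held 74 cells and the highest female bin 22, so these ends carry the widest counting error.

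**Figure D4:**
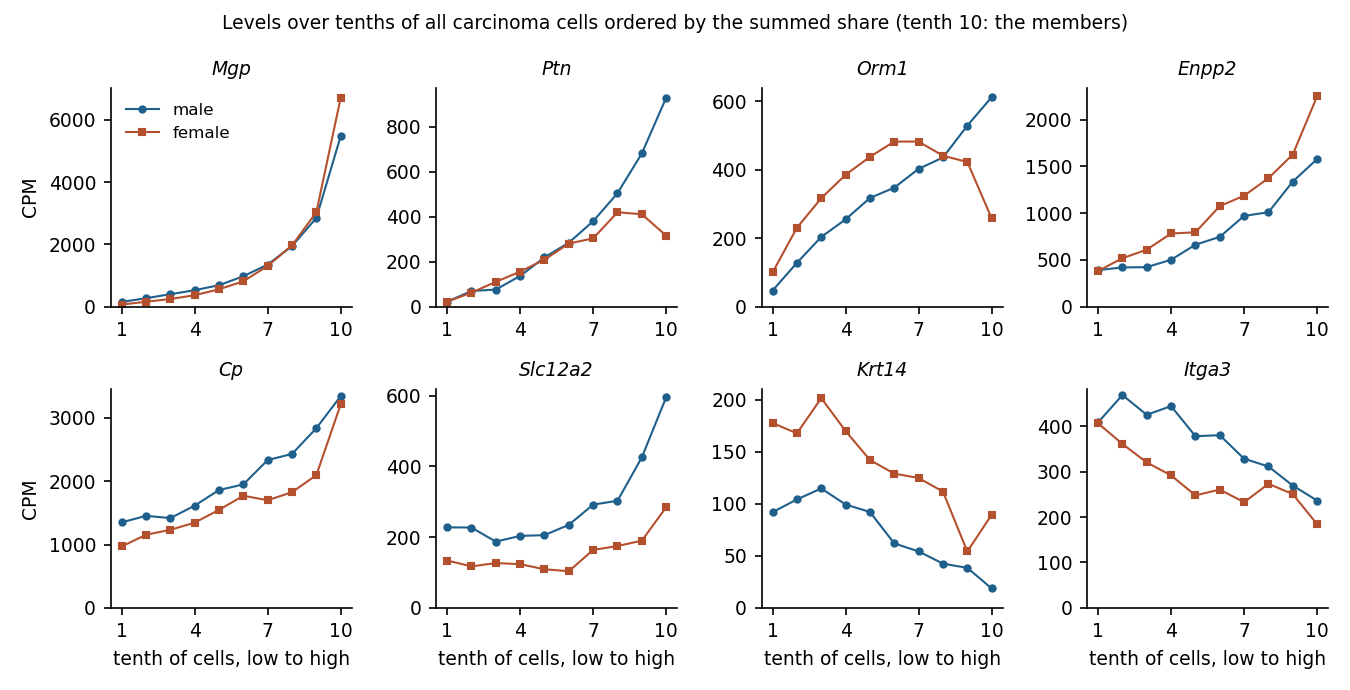
Level in CPM of summed UMIs (y axis) of 8 genes over 10 equal bins of all 7917 carcinoma cells ordered by the summed share of Mgp, Orm1 and Ptn (x axis, low to high) in the male (blue circles) and female library (orange squares). Bin 10 holds the 770 male and 22 female members. Enpp2 and Cp are highest in bin 10 in both libraries, and female Orm1 peaks at 482 CPM and stands at 258 CPM in the highest bin.

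Clusters made without the 5 marker genes and without sex-linked genes showed where the members lie by other genes. Of 7 clusters, cluster 2, led by Serpina6, Fetub, Fam107a, Tcn2, Orm2, Serpina3n, Clec3b and Ptgds, held 51.7% of male members, and 28.4% of its 1402 male cells were members. Of all male carcinoma cells 30.7% lay in cluster 2. Its proliferation genes summed to 724 CPM, against 9617 CPM in cluster 1, which was led by Aurkb, Nusap1, Spc25 and Top2a. Cluster 1 held 23.9% of male members and 33.8% of all male carcinoma cells. Cluster 2 held 36 female cells, 1.07% of that library, and 2 of them were members. Female members lay mostly elsewhere, 9 of 22 in cluster 3, which was led by Fbxo32, Olr1, Hcar2 and Hmox1 and held 1140 female and 64 male cells. Cluster 3 held 34.0% of all female carcinoma cells, so these 9, or 40.9%, lie near its share of the library. Of its female cells 0.789% were members, against 0.656% of all female carcinoma cells. Of the female own top 10% 41.7% lay in cluster 3 and 4.17% in cluster 2, while 38.9% of the 36 female cells of cluster 2 were in that set. Cluster 5, led by Btc, Akr1c18, Adm and Dynap, was poor in members, with 2.86% of its 454 male and 0.328% of its 609 female cells. As 1 library gave each sex, a cluster mostly of 1 library cannot be told apart from that library.

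**Figure D5:**
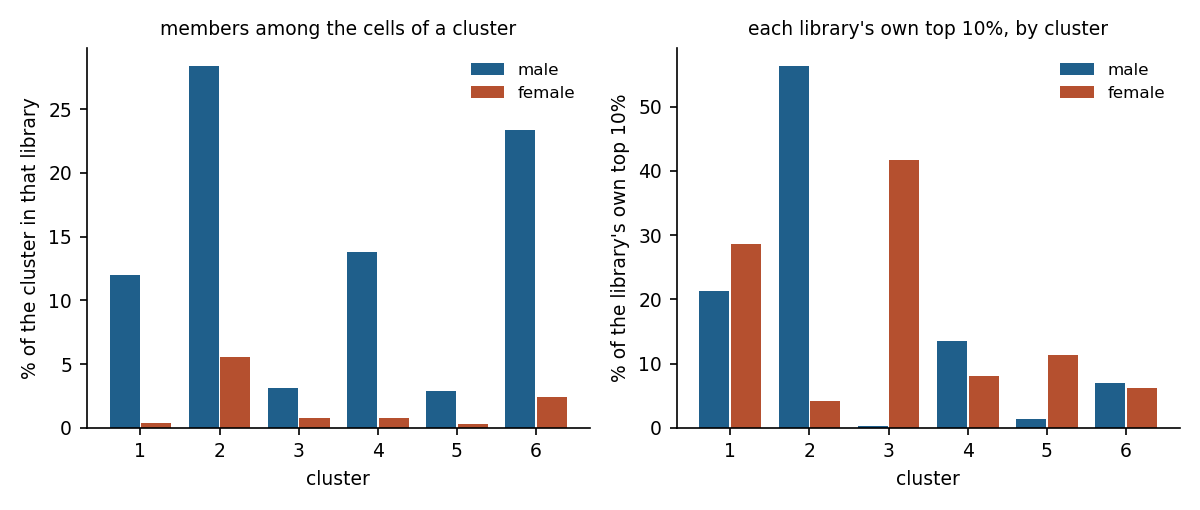
Left, members as percent of the cells of clusters 1 to 6 (x axis) in the male (blue) and female library (orange). Right, the part of each library's own top 10% that lies in each cluster. Cluster 2 holds 28.4% members among its male cells, 56.4% of the male own top 10% and 30.7% of all male carcinoma cells. Cluster 3 holds 41.7% of the female own top 10% and 34.0% of all female carcinoma cells. Cluster 7, with 29 cells, is not drawn.

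Within clusters the ratios narrowed for some genes and not for others. Among the 4 clusters with at least 50 male members, 11 of the 15 highest-ranked genes were above 1 in each, and 5 (Fetub, Tst, Slc12a2, Tnnc1 and Tslp) were at least 1.5-fold higher in each. Fetub was 3.12, 2.50, 4.45 and 3.95 times its rest level in male members of clusters 1, 2, 4 and 6. Slc12a2 was 1.99, 1.89, 1.73 and 2.21 times. Enpp2 was 1.55, 1.27, 1.49 and 1.46 times, below its 1.83 over all male cells, and Cp was 1.43, 1.19, 1.45 and 1.17 times. Of the 15 lowest-ranked genes, 9 were below 1 in each of the 4 clusters, and Adm was 1.53 times its rest level in cluster 6. Ankrd1 and Krt14 were past 1.5-fold lower in male members of each of the 4 clusters, Krt14 at 0.270, 0.415, 0.405 and 0.349 times. Mki67 was 1.18, 0.964, 1.04 and 1.49 times in them, while over all male cells it was lower in members.

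Male and female members were set side by side as 2 libraries, with the rest of the same libraries as the measure of what differed anyway. Of 6754 genes, 1484 (22%) were at least 1.5-fold higher and 1043 (15.4%) at least 1.5-fold lower in male than in female members, and in the rest 230 (3.41%) and 294 (4.35%) of the same genes. Of those 2527 genes, 340 were past 1.5-fold the same way in the rest, and the 22 female cells make the first counts wide. Hmox1, heme oxygenase, stood at 26.9 CPM in male members and 411 CPM in female members, and at 39.4 and 296 CPM in the other male and other female cells. Spp1, osteopontin, stood at 1169 CPM in male members and 6927 CPM in female members, and at 1733 and 2855 CPM in the other male and other female cells. In female members 1 cell held 409 of its 1315 UMIs, and the median was 23 UMIs per female member and 25 per other female cell. Ptn was 2.94 times as high in male as in female members, and 2.80 times in the rest, while Mgp was 0.817 times in members and 3.50 times in the rest. Cxcl9, an interferon-induced chemokine, stood at 363 CPM in male members and 42.1 CPM in female members on 8 UMIs, and at 343 and 316 CPM in the other male and other female cells. The other genes at the ends of the male-to-female order were Dynlt1f, Plk1, Cbr2, Orm2, Nexn, Kif15 and Ogfr, each with 1 UMI in female members, on the male side and Slc20a1, Akr1c18, Gclc, Fbxo32, Il13ra2, Nt5e and Plk2 on the female side.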

How the data were processed

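Single cells of MB49 tumours were profiled in 4 libraries, of which the 2 CD45-negative ones were compared and the 2 CD45-positive ones served as a background check. The deposited matrices hold raw UMI counts per gene and cell. Per the submitters' processing notes, the tools were CASAVA 1.8, UMI-tools and Seurat and the build mm10, and no source used here names the aligner. The CD45-negative libraries totalled 62273035 UMIs for males and 44601391 for females.

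Counts were summed over cells per library and set and scaled to CPM. Ratios had exact conditional binomial intervals, levels exact Poisson intervals and shares Clopper-Pearson intervals, each at 95% and covering counting error only. A count of 0 was set to 3 counts and its ratio taken as a bound, or left out where that bound crossed 1. Mitochondrial, ribosomal, immunoglobulin, T cell receptor, haemoglobin, sex-linked and predicted genes were left out of the comparison over all genes. A gene was called at 1.5-fold in both libraries, and no test was run because each sex had 1 library. A list gene was measured with at least 20 UMIs in each library. Members and gene lists were chosen with earlier results of these data known. Genes named were taken from the rule, the 2 proposed markers, and the 15 highest and 15 lowest by the log2 ratio nearer to 0. Others were the called genes and the 3 with most UMIs of each list. Further ones were 8 at each end of the male-to-female order and the 5 most like the summed share. Not all of the list genes are described, among them Hsph1, Ddit3 and Tgfbi, called lower, and Srxn1, called higher. Genes named outside this rule (such as Lif, Il6, Ggcx, Mki67, H2-Aa, Cxcl14 and Postn) were chosen after their values were seen. Clusters (Leiden, resolution 0.6) used 2000 variable genes, 30 principal components and 15 neighbours, without Mgp, Orm1, Ptn, Enpp2, Olfml3 and sex-linked genes. Cells were thinned to 2000 UMIs for shares. No doublet caller was run, and the 5% deepest cells were left out as an alternative. Near-identical families share reads. Scripts were tested on simulated data and used Python 3.11.15, numpy 2.4.6, scipy 1.17.1, pandas 2.3.3, scikit-learn 1.9.0, python-igraph 0.11.9, leidenalg 0.10.2 and matplotlib 3.10.9.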

Additional observations from a re-analysis of the deposited data

Results flagged for a closer look

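Nt5e and Slc20a1 stood on opposite sides of their rest level in male and female members. Nt5e, which encodes the ectonucleotidase CD73, had a member-to-rest log2 ratio of -0.98 in the male library, at 47.0 CPM in members and 92.5 CPM in the rest, and of 0.63 in the female library, at 311 and 201 CPM in members and rest. Slc20a1, a phosphate transporter, had a log2 ratio of -0.70 in the male library, at 21.3 CPM in members and 34.6 CPM in the rest, and of 1.20 in the female library, at 279 and 122 CPM in members and rest. With each library's own top 10% the female log2 ratio of Nt5e was 0.00 and that of Slc20a1 0.41. The difference between the libraries was not tested, and the female values rest on 22 cells.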

How the results depend on the processing

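The main choice called 83 genes higher and 52 lower in members of both libraries, with members at 16.9% of male and 0.656% of female carcinoma cells and 2527 genes different between male and female members. Each library's own top 10% gave 48 higher and 22 lower genes, shares of 10.0% in both, and 1014 genes between the sexes. The top 5% gave 113 lower genes and shares of 8.44% male and 0.358% female. The top 20% gave 25 lower genes, shares of 33.3% male and 1.97% female, and 1510 genes between the sexes. Leaving Mgp out of the summed share gave 206 higher and 366 lower genes and a female share of 1.64%, and 321 of its members were shared with the main ones. Leaving out Orm1 gave 52 higher genes, and leaving out Ptn 32 lower genes. A 2-fold threshold left 12 higher and 4 lower genes. The male library alone gave 154 higher and 126 lower genes and the female alone 1020 and 1480. A filter of 20 UMIs and 5 CPM gave 149 and 107, and no filter beyond 1 UMI in each arm 245 and 109. Dividing by the median ratio of all eligible genes gave 33 lower genes. Without cells holding fibroblast marker UMIs, which left 360 male and 484 female cells with 81 and 3 members, 105 genes were lower, the male share was 22.5% and 485 genes differed between the sexes. Added after the data were seen, thinning to 2000 UMIs gave 45 higher genes and shares of 19.2% male and 1.25% female, and the demand on counting intervals gave 26 lower genes. Of the 45 genes higher after thinning, 23 were among the 83, and of the 73 lower genes 19 were among the 52. Some named genes no longer had the same direction in both libraries, or had no ratio. With the top 5% these were Fetub, Slc12a2, Tnnc1, Chl1, Fmo1, Sgf29 and Trmt61a. With thinning they were Tst, Lgals2, Fmo1, Sgf29 and Trmt61a. More did so without fibroblast-marker cells, on 3 female members, and a few under other settings. Some list medians (log2) changed sign. The female autotaxin median was -0.17 with own top 10% sets, against 1.27. The female fibroblast median was 0.11 without Mgp in the share and 0.29 without fibroblast-marker cells, on 3 members, against -0.85. The female pericyte median was -0.13 for the top 5%, -0.62 for the top 20% and -0.45 for own top 10% sets, against 1.03. The male pericyte median was 1.66 without fibroblast-marker cells and 0.45 without cluster 7, against -0.86. The female proliferation median was 1.45 without fibroblast-marker cells, on the same 3 members, against -1.14. The causes were not tested. No paired analysis was possible because each sex and sort has 1 library. Depth limits the female members most, where 3 UMIs are 15.8 CPM.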

Other observations

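Igkc, the immunoglobulin kappa constant gene of plasma cells, stood at 237 CPM in male members and 101 CPM in the male rest, and at 31.6 CPM in female members (6 UMIs) and 11.1 CPM in the female rest. The Y-linked gene Ddx3y stood at 2.86 CPM in male members and 11.1 CPM in the male rest, and at 15.8 CPM in female members (3 UMIs) and 15.9 CPM in the female rest. Igfbp6, an insulin-like growth factor binding protein, stood at 85.5 and 54.3 CPM in male members and rest, and at 227 and 73.0 CPM in female members and rest. Wfdc2, a secreted protease inhibitor of epithelia, stood at 376 and 220 CPM in male members and rest, and at 184 and 97.8 CPM in female members and rest. Col12a1, a fibril-associated collagen, stood at 21.5 and 35.8 CPM in male members and rest, and at 15.8 and 58.3 CPM in female members and rest.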
